A study of Mus musculus with 6 samples.

Results

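Blood vessels of skeletal muscle are built from endothelial cells, which line them, and from mural cells, which wrap them: pericytes on capillaries and smooth muscle cells on larger vessels. A list of 41 genes that mark or serve these cells was followed in whole gastrocnemius/plantaris (GP) muscle, and 40 of the 41 have a row among the 24421 gene symbols counted. Members were found by an exact match of the symbol. Des1 has no row, and all 40 others passed edgeR's expression filter in these libraries. The 41 were grouped by role into 26 endothelial genes, 2 inducible adhesion molecules, 3 ligands, 8 mural genes and 2 others, Prox2 and Des1, which have no established use as vessel markers.

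The study deleted Net39, which encodes a protein of the muscle nuclear envelope, in adult mice, and profiled GP muscle by bulk RNA-Seq at 5 months of age, 3 months after tamoxifen. By the labels and the study's methods, all 6 mice carried Net39 fl/fl alleles and received tamoxifen, and those injected were males. The labels give B6C3F1 as the strain background, while the methods describe a later cross to C57BL/6N. By the labels the 3 Ctrl mice had no Cre, and the 3 cKO mice carried HSACreERT2, a Cre under a human skeletal actin promoter that acts in muscle fibres and is not aimed at vessel cells. As Cre and the deletion go together in these labels, their effects cannot be told apart. The libraries held 33860001 to 48839910 counts.

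Net39, listed as Ppapdc3, went against the labels. Its CPM (read count relative to library size, after TMM scaling) was 7.92, 7.75 and 5.93 in the Ctrl-labelled libraries 1, 2 and 3 and 151, 113 and 138 in those labelled cKO (log2 fold change, or log2FC, 4.22 with a standard error of 0.17, and an adjusted p of 0.000161 in the quasi-likelihood test of edgeR). The study reports reduced Net39 mRNA in cKO muscle by bulk RNA-Seq, and more type I and fewer type IIb nuclei by single-nucleus RNA-Seq. Here 3 of 8 slow-fibre genes were higher in the Ctrl-labelled libraries at an adjusted p under 0.05 from edgeR. All 8 type IIb genes were higher in the cKO-labelled ones at that limit, though both counts shifted with single libraries left out. Which libraries carried Cre therefore rests on labels that Net39 contradicts, and these fibre genes run against the study's report as well. Groups are named as labelled, each log2FC sets the cKO label over the Ctrl label, and each direction stated below is that of the labels.

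Endothelial cells are held together by VE-cadherin and other junction proteins and take their growth and survival signals through the VEGF and TIE receptors. They attract pericytes with PDGF-B, which pericytes read through PDGFRB. Endothelial cells can also be activated by inflammatory signals, upon which they display adhesion molecules for leukocytes. Smooth muscle cells carry a contractile program of their own, of which calponin, transgelin and smooth muscle myosin are standard markers.

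Most endothelial genes did not pass the test (21 of 26), most mural genes did (5 of 8), and the members that passed were all lower in the libraries labelled cKO. This contrast depended on the libraries kept: without Ctrl 1 only 1 mural gene passed, and without Ctrl 2, cKO 1 or cKO 3 only 2. In each of these fits 1 endothelial gene passed. Further lists of pericyte and smooth muscle genes, given below, had shares near that of all genes. Of the 40 members, 11 passed an adjusted p under 0.05 with the higher level in Ctrl-labelled libraries (27.5%), where 11.8% of the 14180 genes tested did so. In the other direction 0 members passed, against 12.6% of all genes tested, and 0 had an unadjusted p under 0.05, against 19.2% of all genes. At that unadjusted limit 13 members were higher in the Ctrl-labelled libraries, against 19.6% of all genes. DESeq2's Wald test gave 10 members higher in the Ctrl-labelled libraries and 0 in the cKO-labelled ones. Over both directions together the members' share was close to that of all genes, of which 24.4% passed. The median log2FC was -0.22 over the members and -0.015 over all genes tested. Only Cnn1 also differed by over 2-fold, a size that 3.92% of all genes reached in that direction. Groups did not overlap in 15 members (37.5%), each higher in the Ctrl-labelled libraries, against 21.9% of all genes in that direction, 22% in the other and 43.9% in either. The scaling of the libraries bears on differences of this size: scaled by total counts instead of TMM, the median of all genes moved to -0.27, and 20 members passed against 28.7% of all genes, again all higher in the Ctrl-labelled libraries. Without Ctrl 1 the 11 became 3 of 40, near the 5.63% of all genes that passed in that fit. They became 4 without Ctrl 2, cKO 1 or cKO 3, beside 6.57%, 6.18% and 5.46% of all genes, 10 without Ctrl 3 (10.6%) and 12 without cKO 2 (12.5%). Vwf, Icam1 and Cnn1 passed in each of the 13 alternative fits.

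**Figure D1:**
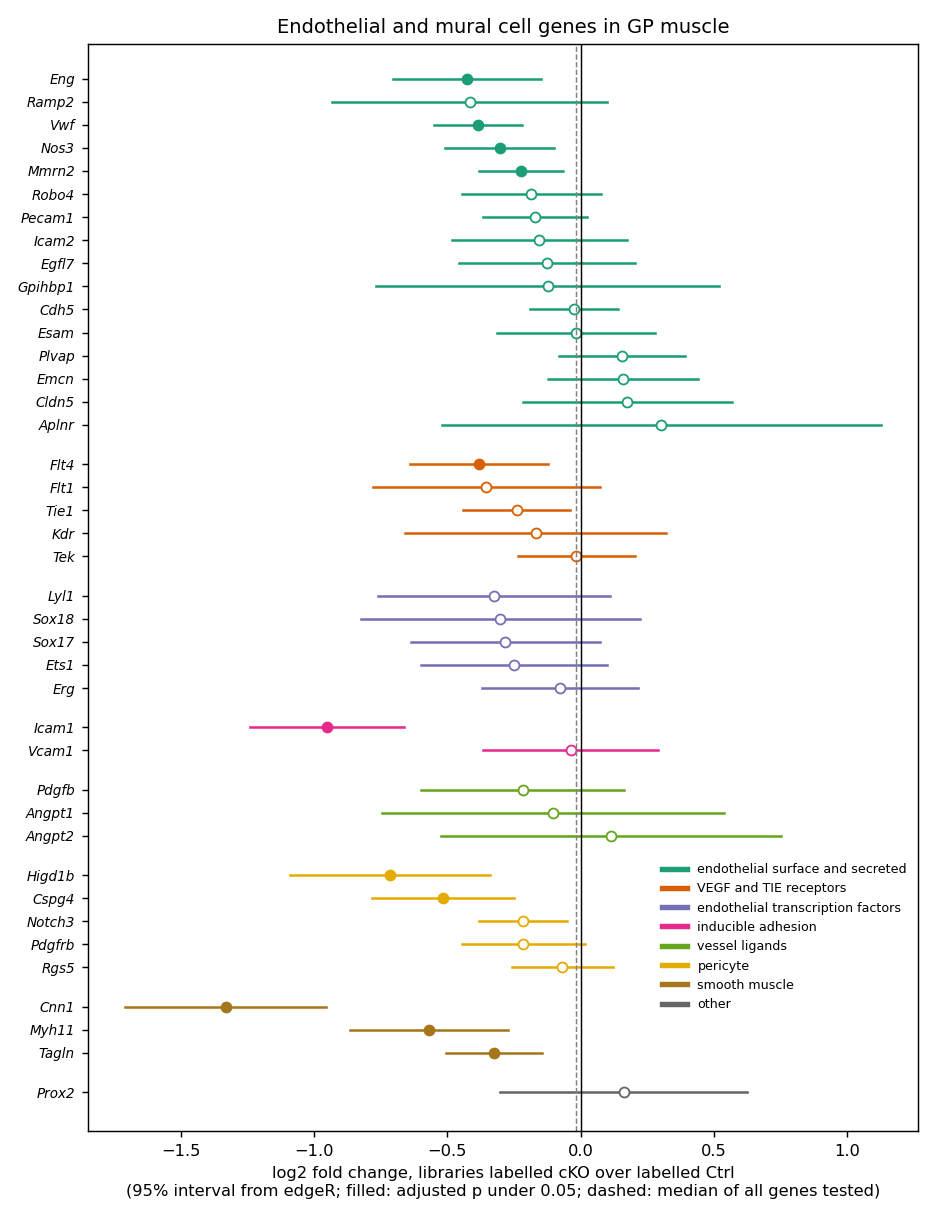
Log2 fold change (horizontal axis) of each of the 40 vessel genes with a row, libraries labelled cKO over labelled Ctrl, with the 95% interval from edgeR's fit (lines) and an adjusted p under 0.05 marked by filled points. The filled points all lie left of 0, with Cnn1 at -1.33 and Icam1 at -0.95 furthest out, and the endothelial genes lie between -0.43 and 0.30.

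The values reflect whole muscle, in which fewer cells of a type and less RNA per cell cannot be told apart. On a per-length scale (mean CPM per 1000 exon bases of GENCODE M21), the level was highest for the pericyte gene Rgs5 in either group (34.3 in the Ctrl-labelled libraries and 32.8 in the cKO-labelled ones). Tagln (31.4), Cdh5 (30.2) and Pecam1 (25.9) followed in the Ctrl-labelled libraries, and Cdh5 (29.8), Tagln (25.1) and Pecam1 (23.03) in the cKO-labelled ones. The lowest levels in the Ctrl-labelled libraries were those of Vcam1 (0.720), Prox2 (0.757) and Angpt2 (0.977), whereas in the cKO-labelled ones Cnn1 (0.669) came below Vcam1 (0.702) and Prox2 (0.848). The defining markers of endothelial cells, pericytes and smooth muscle cells were thus all present in this muscle.

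The sequences upstream of 4 of these genes are shown because Cnn1 and Icam1 differed most between the groups, and Cspg4 and Rgs5 are pericyte genes that did and did not pass. Each is the 250 bases before the start of transcription given by RefSeq on GRCm38.p6, 5′ to 3′ on the gene's own strand. The GENCODE M21 gene starts differ: those of Cnn1 (22099216) and Cspg4 (56865033) lie inside the windows, and that of Icam1 (21015985) lies beyond its window. They lie on the plus strand at chr9:22099003-22099252 (Cnn1), chr9:21015690-21015939 (Icam1), chr9:56864854-56865103 (Cspg4) and chr1:169655251-169655500 (Rgs5). Capitals mark the ETS core GGAA on either strand, the letters read by the factors of Erg and Ets1.
Cnn1: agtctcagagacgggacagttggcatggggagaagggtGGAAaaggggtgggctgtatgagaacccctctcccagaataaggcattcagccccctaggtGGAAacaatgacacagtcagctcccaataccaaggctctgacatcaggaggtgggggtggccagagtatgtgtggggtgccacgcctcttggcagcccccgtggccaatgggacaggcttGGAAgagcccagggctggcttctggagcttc
Icam1: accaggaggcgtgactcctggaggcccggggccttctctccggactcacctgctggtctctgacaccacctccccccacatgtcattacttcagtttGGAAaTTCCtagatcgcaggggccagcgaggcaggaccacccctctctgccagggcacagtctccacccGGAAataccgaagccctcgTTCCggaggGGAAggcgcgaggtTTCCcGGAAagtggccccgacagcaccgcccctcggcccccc
Cspg4: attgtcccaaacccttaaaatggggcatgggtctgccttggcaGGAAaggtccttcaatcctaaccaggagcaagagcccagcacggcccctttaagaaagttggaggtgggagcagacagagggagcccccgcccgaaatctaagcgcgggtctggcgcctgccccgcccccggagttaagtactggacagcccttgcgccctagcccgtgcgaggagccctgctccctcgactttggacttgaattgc
Rgs5: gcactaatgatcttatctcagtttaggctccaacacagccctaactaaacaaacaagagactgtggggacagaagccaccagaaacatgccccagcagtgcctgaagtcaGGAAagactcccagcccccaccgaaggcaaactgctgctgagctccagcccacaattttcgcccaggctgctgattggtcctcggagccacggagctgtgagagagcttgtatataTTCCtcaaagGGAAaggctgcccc
The table held 23 such windows for 18 of the members, with more than 1 for Egfl7, Erg and Prox2. GGAA was in 20 of the 23 windows (87%) and in 93.4% of all 32851 windows of the same length. The CArG box, the motif of serum response factor, was in 0 of the 23 and in 1.47% of all windows; of the 3 smooth muscle members only Cnn1 had a window. The NF-kappaB pattern searched for was in 2 of the 23 windows (8.7%, those of Flt1 and Kdr) and in 3.9% of all windows. It had 0 matches in the Icam1 window. A match is a description of letters and not of a bound site.

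The 3 ligands did not pass the test. PDGF-B, the endothelial signal that recruits pericytes, was counted at 35.0, 39.0 and 53.9 CPM of Pdgfb in the Ctrl-labelled libraries and at 34.0, 40.0 and 36.1 CPM in the cKO-labelled ones (log2FC -0.22, 95% interval -0.60 to 0.16). Angpt1, which encodes the activating ligand of the TIE2 receptor, ranged from 13.6 to 17.6 CPM in the Ctrl-labelled libraries and from 9.54 to 20.7 CPM in the cKO-labelled ones. Angpt2, the context-dependent antagonist of that receptor, ranged from 2.65 to 4.81 CPM and from 3.04 to 4.68 CPM. For all 3 the groups overlapped. The intervals of the angiopoietin genes were wide (-0.74 to 0.54 for Angpt1 and -0.52 to 0.75 for Angpt2), so moderate differences in either direction were not detectable here.

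Of the 5 VEGF and TIE receptor genes, 1 passed (20%, against 11.8% of all genes in that direction and 24.4% in either). Flt4 encodes VEGFR3, the receptor for VEGF-C that lymphatic endothelium relies on. It had 12.7, 10.4 and 12.03 CPM in the Ctrl-labelled libraries and 8.33, 9.19 and 9.43 CPM in the cKO-labelled ones, with no overlap between the groups (log2FC -0.38, standard error 0.11, adjusted p = 0.0447 from edgeR). This call was lost in each of the 6 fits without 1 library, with an adjusted p from 0.0508 (without Ctrl 2) to 0.150 (without Ctrl 1) and a log2FC from -0.46 to -0.32, and also with no expression filter (0.0601). Kdr, the gene of VEGFR2 and the main VEGF-A signalling receptor of blood vessels, had 53.7, 63.0 and 70.4 CPM in the Ctrl-labelled libraries and 47.0, 74.8 and 44.5 CPM in the cKO-labelled ones. Its groups overlapped through library cKO 2, and its log2FC of -0.17 (95% interval -0.66 to 0.32) did not pass (adjusted p = 0.586 from edgeR), whereas without that library it was -0.46 (adjusted p = 0.0366). Flt1, whose product VEGFR1 largely acts as a decoy for VEGF-A, had 120, 110 and 81.1 CPM against 92.4, 65.0 and 86.6 CPM (log2FC -0.35, 95% interval -0.78 to 0.071). Tek, the gene of the angiopoietin receptor TIE2, differed least of the 5, with 31.8 to 35.4 CPM in the Ctrl-labelled libraries and 30.5 to 36.8 CPM in the cKO-labelled ones (log2FC -0.016, 95% interval -0.24 to 0.20). Tie1, which encodes its orphan partner, was 53.2 to 63.3 CPM against 49.9 to 51.4 CPM. The groups of Tie1 did not overlap, and its log2FC of -0.24 had an adjusted p of 0.0808 from edgeR, which became 0.0222 without library Ctrl 3. With total counts Tie1 (-0.49, adjusted p = 0.0132) and Flt1 (-0.62, adjusted p = 0.0278) passed.

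None of the 5 endothelial transcription factors passed the test with edgeR (0 of 5, and 0 at an unadjusted p under 0.05). Erg, a member of the ETS family that maintains endothelial identity, was 14.4 to 18.7 CPM in the Ctrl-labelled libraries and 14.0 to 16.7 CPM in the cKO-labelled ones (log2FC -0.077, 95% interval -0.37 to 0.22). Ets1, another ETS factor, had a log2FC of -0.25 and the SOX factors Sox17 and Sox18, which act in arterial and lymphatic specification, -0.28 and -0.30. Lyl1, a basic helix-loop-helix factor also used in blood cells, had -0.33. The groups of Sox17 nearly touched without overlap (21.63 to 28.6 CPM against 16.5 to 21.59 CPM), while those of the other 4 overlapped. Without library cKO 2, Ets1 (-0.42, adjusted p = 0.0421 from edgeR) and Sox18 (-0.58, adjusted p = 0.0450) passed, and with total counts Sox17 did (-0.55, adjusted p = 0.0261).

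Of the 16 genes for endothelial surface and secreted proteins, 4 passed, all higher in the Ctrl-labelled libraries, and 12 did not (25.0% passed, against 11.8% of all genes in that direction and 24.4% in either). The 4 became 1, Vwf, without Ctrl 1 (5.63% of all genes), Ctrl 2 (6.57%), cKO 1 (6.18%) or cKO 3 (5.46%), and 7 with total counts (28.7%). Vwf encodes von Willebrand factor, the clotting protein that endothelial cells store in granules, and lies on chromosome 6 of GRCm38 (chr6:125546774-125686679). It had 63.6, 59.5 and 61.4 CPM in the Ctrl-labelled libraries and 49.6, 45.3 and 46.5 CPM in the cKO-labelled ones. The groups were far apart relative to their spread (61.5 ± 2.05 against 47.1 ± 2.20 CPM, SD, n = 3 each), with a log2FC of -0.38 (standard error 0.070, adjusted p = 0.0104 from edgeR), and the call held without each library in turn. Eng, the TGF-beta co-receptor endoglin (chr2:32646595-32682669), was 106, 91.6 and 79.2 CPM against 68.3, 73.6 and 64.0 CPM (log2FC -0.43, standard error 0.12, adjusted p = 0.0385). Nos3, the endothelial nitric oxide synthase gene, was 24.2, 24.8 and 27.4 CPM against 19.4, 21.8 and 20.8 CPM (log2FC -0.30, adjusted p = 0.0431). Mmrn2, a matrix glycoprotein of vessel walls, was 31.0, 32.2 and 32.6 CPM against 26.9, 27.1 and 27.9 CPM (log2FC -0.22, adjusted p = 0.0477). In each of the 4 the groups did not overlap, as in 21.9% of all genes in that direction, but the last 3 calls were near the threshold. Eng lost it without Ctrl 1 (adjusted p = 0.109), Ctrl 2 (0.0966), cKO 1 (0.108) or cKO 3 (0.128). Nos3 lost it without every library but cKO 2 (adjusted p from 0.0837 without Ctrl 1 to 0.108 without cKO 1) and with no expression filter (0.0637). Mmrn2 lost it without each of the 6 libraries (0.0674 to 0.130), with DESeq2's size factors (0.0550), with DESeq2's Wald test (0.0923) and with no filter (0.0986). Of the exon bases of Nos3, 32.3% are shared with Atg9b and Gm15587 on the opposite strand, and the use of strand in the authors' counting is not given in the sources used here. Atg9b itself had at most 0.383 CPM in any library.

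The general markers of endothelial cells did not pass with TMM scaling. Cdh5, the VE-cadherin gene, had 117, 122 and 123 CPM in the Ctrl-labelled libraries and 118, 124 and 115 CPM in the cKO-labelled ones (log2FC -0.024, 95% interval -0.19 to 0.14). Pecam1, the gene of the junction protein CD31, had 108, 112 and 102 CPM against 99.6, 87.5 and 98.5 CPM, without overlap, and a log2FC of -0.17 (95% interval -0.37 to 0.024, adjusted p = 0.175 from edgeR). With total counts Cdh5 was at -0.28 (adjusted p = 0.0503), Pecam1 passed at -0.43 (adjusted p = 0.00788) and Robo4 at -0.45 (adjusted p = 0.0180), where the median of all genes was -0.27. The junction genes Esam (-0.018) and Cldn5 (0.17), the sialomucin gene Emcn (0.16), the fenestral diaphragm gene Plvap (0.16) and the guidance receptor gene Robo4 (-0.18) did not pass either. Icam2, which endothelium expresses without stimulation, was 5.92 to 8.07 CPM against 5.95 to 6.54 CPM (log2FC -0.15), and Egfl7, a secreted endothelial factor, had -0.13.

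Several capillary genes varied widely between mice of a group. Gpihbp1, which carries lipoprotein lipase to the capillary lumen, had 49.7, 46.8 and 25.5 CPM in the Ctrl-labelled libraries and 41.4, 27.4 and 43.3 CPM in the cKO-labelled ones. Ramp2, the adrenomedullin receptor subunit, had 31.1, 26.3 and 16.9 CPM against 18.6, 16.0 and 21.1 CPM, and passed only without library Ctrl 3 (log2FC -0.63, adjusted p = 0.0266 from edgeR) and with total counts (adjusted p = 0.0494). Aplnr, the apelin receptor gene, had 3.75, 5.598 and 6.26 CPM against 3.47, 9.19 and 6.57 CPM. The low libraries for Gpihbp1 and Ramp2 were Ctrl 3 and cKO 2 in their groups, and for Aplnr the same 2 libraries were the high ones. In 16 of the 26 endothelial genes (61.5%) Ctrl 3 and cKO 2 were both the lowest or both the highest of their group, against 33.4% of all genes tested. They were both lowest for Pecam1, Esam, Gpihbp1, Ramp2, Flt1, Erg and Sox17 and both highest for Cdh5, Icam2, Plvap, Aplnr, Nos3, Kdr, Sox18, Ets1 and Lyl1. This pair was singled out after the values were seen, and its part in the results was not tested.

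**Figure D2:**
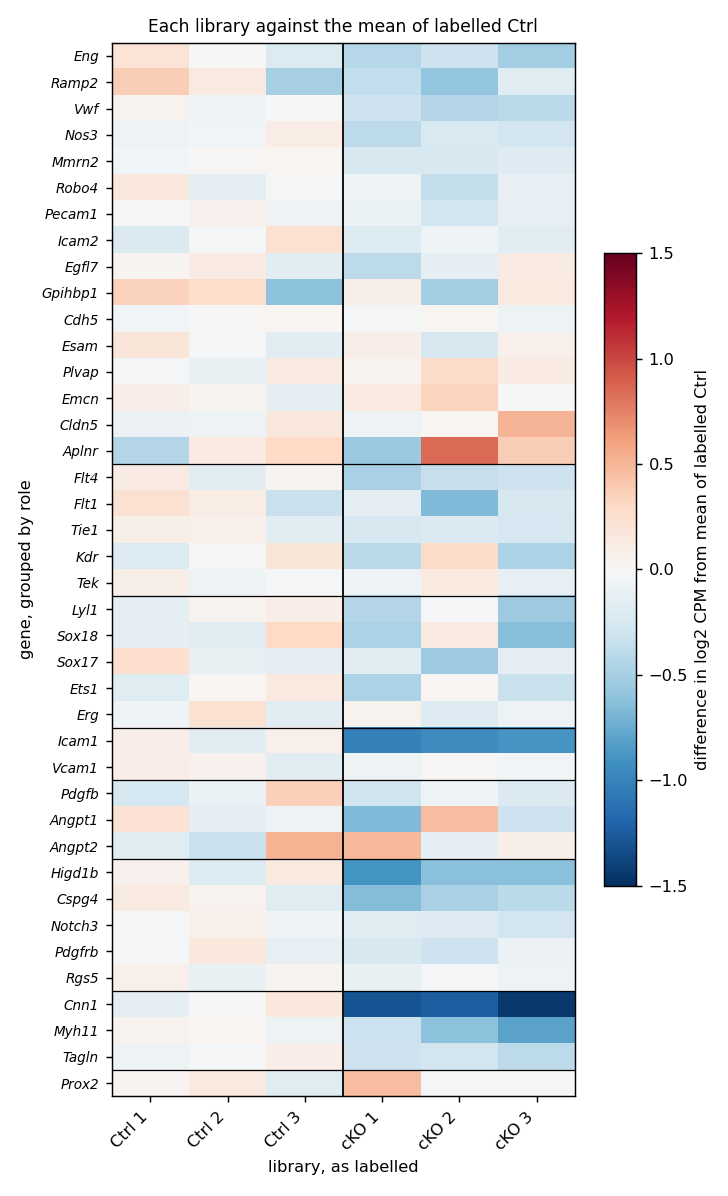
Difference in log2 CPM of each library (columns, as labelled) from the mean of the 3 libraries labelled Ctrl, for 40 vessel genes (rows, in the same order of roles as the plot of fold changes). Cnn1 and Icam1 are dark blue in all 3 libraries labelled cKO, Gpihbp1 is blue in Ctrl 3 and cKO 2 alone, and Kdr is red in the same 2.

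Of the 2 inducible adhesion molecules 1 passed, and the difference between them was not tested. Icam1, the ICAM-1 gene whose product binds leukocyte integrins, lies at chr9:21015985-21028817 of GRCm38. It had 8.66, 7.17 and 8.51 CPM in the Ctrl-labelled libraries (339, 297 and 311 counts) and 4.01, 4.21 and 4.36 CPM in the cKO-labelled ones (142, 162 and 192 counts). The groups were far from overlapping, and the log2FC was -0.95 (standard error 0.12, adjusted p = 0.00391 from edgeR). It ranged from -1.20 to -0.90 over the alternatives and passed in all 13. Vcam1, the VCAM-1 gene, which is induced by many of the same signals and is also made by muscle stem cells, had 3.83, 3.74 and 3.20 CPM against 3.39, 3.64 and 3.48 CPM. Its log2FC of -0.037 (95% interval -0.37 to 0.29) did not pass. Gm47079, on the opposite strand, shares 20.2% of the exon bases of Icam1.

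Beside Icam1, markers of leukocytes were also lower in the cKO-labelled libraries. Of 17 immune genes, 13 were tested, and 10 of these passed (76.9%, against 11.8% of all genes), all higher in the Ctrl-labelled libraries. Between 4 (without Ctrl 2 or cKO 3) and 12 (without cKO 2) passed with 1 library left out, with 6 without Ctrl 1 and 7 without Ctrl 3 or cKO 1. The summed level of the list was 249 to 269 CPM in the Ctrl-labelled libraries and 122 to 157 CPM in the cKO-labelled ones, with the macrophage genes Lyz2 (log2FC -1.07) and C1qa (-0.96) among them. The T cell gene Cd3e and the B cell gene Cd79a were at most 0.415 and 0.128 CPM in any library, and no gene of the list was at 0 in all libraries. Nfkb2, a subunit gene of the NF-kappaB factors, known inducers of Icam1, was 60.3 to 64.4 CPM against 16.4 to 17.2 CPM (log2FC -1.89). The part of these cells and of this factor in the Icam1 difference was not tested.

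All 8 mural genes had negative log2FCs, with a median of -0.42, and 5 of the 8 passed (62.5%, against 11.8% of all genes in that direction). The 5 became 1, Cnn1, without Ctrl 1 (5.63% of all genes), and 2 without Ctrl 2, cKO 1 or cKO 3, while all 8 passed with total counts (28.7%). Of the 5 pericyte genes, 3 did not pass. Rgs5, a regulator of G protein signalling and the standard marker of pericytes, had 164, 144 and 160 CPM in the Ctrl-labelled libraries and 144, 154 and 148 CPM in the cKO-labelled ones (log2FC -0.069, 95% interval -0.26 to 0.12). Pdgfrb, the receptor gene for PDGF-B, had 54.5, 62.1 and 51.5 CPM against 47.3, 44.95 and 52.6 CPM (log2FC -0.21, adjusted p = 0.153 from edgeR). Notch3, the Notch receptor of mural cells, was 58.5 to 64.1 CPM against 50.2 to 53.6 CPM, without overlap, and had a log2FC of -0.22 (adjusted p = 0.0636). With total counts these 3 passed, at -0.32 for Rgs5 (adjusted p = 0.0482), -0.47 for Pdgfrb (0.0130) and -0.47 for Notch3 (0.00880).

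The pericyte genes that passed were Cspg4 and Higd1b. Cspg4 encodes the proteoglycan NG2 (chr9:56865033-56899870) and had 21.1, 20.03 and 17.0 CPM in the Ctrl-labelled libraries and 12.3, 13.7 and 14.6 CPM in the cKO-labelled ones (log2FC -0.52, standard error 0.11, adjusted p = 0.0189 from edgeR). Higd1b, a small mitochondrial membrane protein gene (chr11:102835849-102838040), had 4.83, 3.98 and 5.09 CPM against 2.48, 2.99 and 2.98 CPM (log2FC -0.72, standard error 0.16, adjusted p = 0.0199). Neither gene's groups overlapped. Cspg4 lost the call without Ctrl 1 (adjusted p = 0.0716), Ctrl 2 (0.0653) or cKO 1 (0.0662), and Higd1b without Ctrl 1 (0.0721), cKO 1 (0.0605) or cKO 3 (0.0555).

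The 3 smooth muscle genes all passed and were all lower in the cKO-labelled libraries, where 11.8% of all genes passed in that direction. Of the 3, only Cnn1 passed also without Ctrl 1, Ctrl 2 or cKO 3, beside 5.63%, 6.57% and 5.46% of all genes. Cnn1, the gene of the actin-binding protein calponin 1 (chr9:22099216-22109630), had 3.81, 4.20 and 4.73 CPM in the Ctrl-labelled libraries (149, 174 and 173 counts) and 1.72, 1.79 and 1.55 CPM in the cKO-labelled ones (61, 69 and 68 counts). It was 2.52-fold higher in the Ctrl-labelled libraries (log2FC -1.33, standard error 0.16, adjusted p = 0.0034 from edgeR), the widest difference among the 40 genes. Myh11, the smooth muscle myosin heavy chain gene (chr16:14194535-14291372), had 109, 107 and 99.3 CPM against 84.0, 68.4 and 60.03 CPM (log2FC -0.57, standard error 0.13, adjusted p = 0.0196). Tagln, the gene of the actin cross-linking protein transgelin (chr9:45929619-45936058), had 47.6, 48.9 and 53.7 CPM against 40.3, 41.5 and 38.2 CPM (log2FC -0.32, standard error 0.076, adjusted p = 0.0235). In each of the 3 the groups did not overlap, as in 21.9% of all genes in that direction. Myh11 lost the call without Ctrl 1 (adjusted p = 0.0699), Ctrl 2 (0.0631) or cKO 3 (0.0535), and Tagln without Ctrl 1 (0.0518), Ctrl 2 (0.0627), cKO 1 (0.0588) or cKO 3 (0.0758). Of the exon bases of Tagln, 60.9% are shared with Pcsk7 and Gm48529 on the opposite strand. Pcsk7 itself was 19.1 to 20.4 CPM in the Ctrl-labelled libraries and 18.7 to 19.4 CPM in the cKO-labelled ones.

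**Figure D3:**
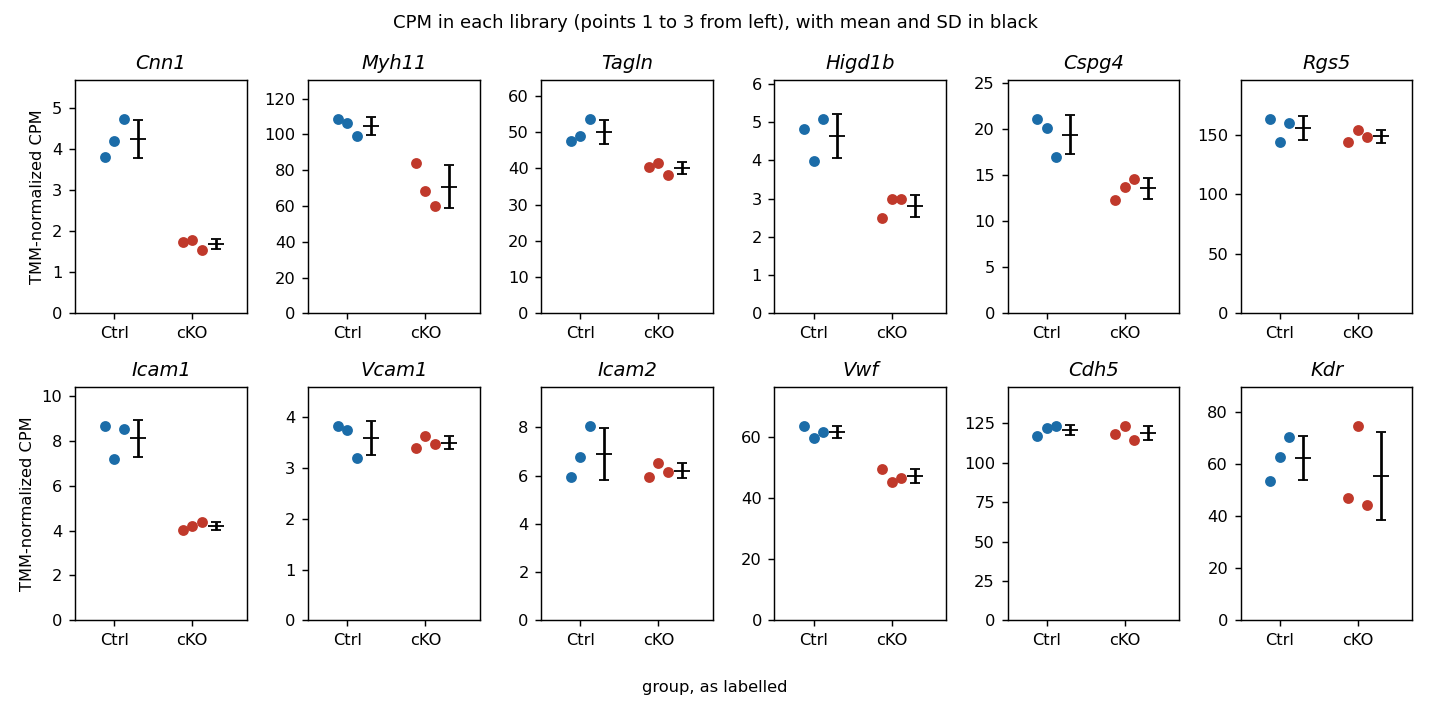
TMM-normalized CPM (vertical axes, from 0) of 12 vessel genes in the 3 libraries labelled Ctrl (blue points, 1 to 3 from left) and the 3 labelled cKO (red points), with the mean and SD in black. Cnn1, Myh11, Tagln, Higd1b, Cspg4, Icam1 and Vwf separate the groups, whereas Rgs5, Vcam1, Icam2, Cdh5 and Kdr overlap.

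Ratios of counts within a library do not depend on how libraries are scaled, and several of these differences stand in them. The pairs were chosen after the values were seen and are given as a description. Per 100 counts of Rgs5 there were 2.32, 2.91 and 2.96 counts of Cnn1 in the Ctrl-labelled libraries and 1.19, 1.16 and 1.04 in the cKO-labelled ones. Myh11 had 66.4, 73.7 and 62.0 counts per 100 of Rgs5 against 58.3, 44.3 and 40.5. The groups of either ratio did not overlap. Per 100 counts of Cdh5 there were 7.40, 5.88 and 6.89 counts of Icam1 against 3.39, 3.41 and 3.80, and 54.3, 48.8 and 49.7 counts of Vwf against 41.9, 36.7 and 40.5. By contrast Rgs5 stood at 140, 119 and 130 counts per 100 of Cdh5 against 122, 125 and 129, and Vcam1 at 2.59 to 3.27 against 2.86 to 3.03. The other 4 pericyte genes were split on this scale. Per 100 counts of Cdh5, Cspg4 had 18, 16.4 and 13.8 counts against 10.4, 11.1 and 12.7, and Higd1b 4.12, 3.27 and 4.12 against 2.1, 2.42 and 2.59, both without overlap. Notch3 did not overlap either (47.4 to 52.6 against 43.1 to 45.4), while Pdgfrb did (41.7 to 50.9 against 36.4 to 45.9).

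**Figure D4:**
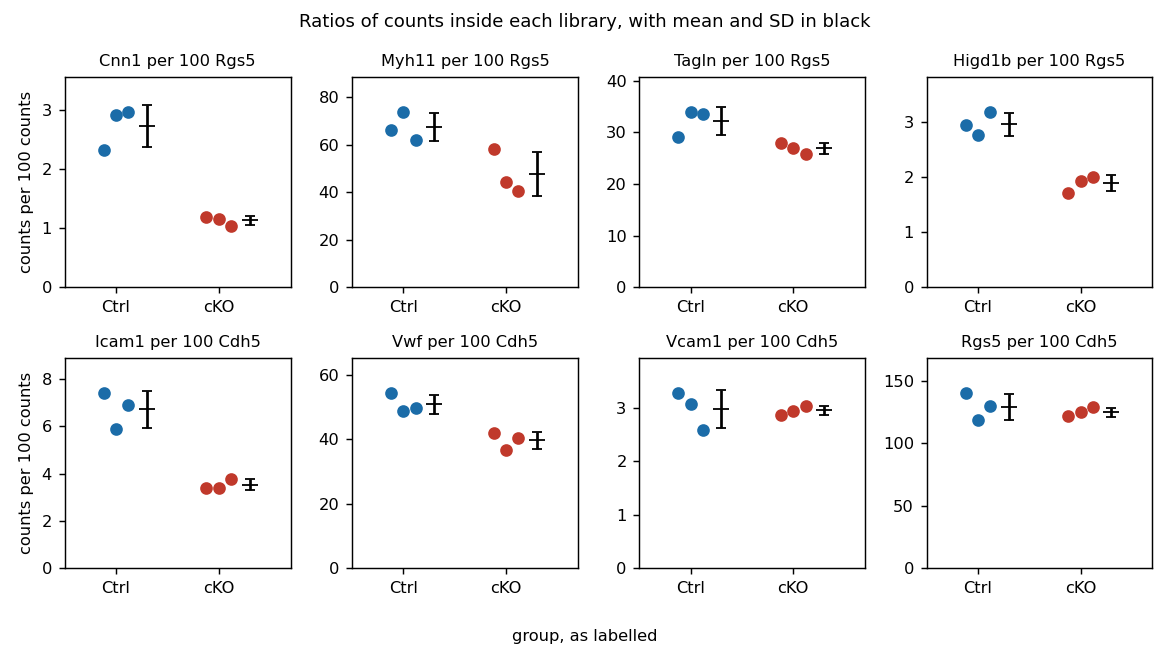
Counts of one vessel gene per 100 counts of another inside each library (vertical axes, from 0), for libraries labelled Ctrl (blue) and cKO (red), with the mean and SD in black. The ratios of Cnn1, Myh11, Tagln and Higd1b to Rgs5 and of Icam1 and Vwf to Cdh5 do not overlap between the groups, while those of Vcam1 and Rgs5 to Cdh5 do.

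In 10 further lists, 138 of 143 vessel-related genes were tested, with a median log2FC of -0.20, and 23 were higher in the Ctrl-labelled libraries (16.7%, against 11.8% of all genes) and 7 in the cKO-labelled ones (5.07%, against 12.6%). The 23 became 14 without Ctrl 1, 13 without Ctrl 2, 11 without cKO 3 and 59 with total counts, and the 7 became 4 without Ctrl 1, cKO 1 or cKO 3. Most single lists had a share near that of all genes, or a count that single libraries decide. Of 10 VEGF ligand and co-receptor genes, 2 passed (20%), with 0 passing edgeR's test without Ctrl 1, Ctrl 2 or cKO 3 and 1 without cKO 1. Figf, the gene of VEGF-D, was 6.29 to 9.53 CPM in the Ctrl-labelled libraries and 3.999 to 5.43 CPM in the cKO-labelled ones (log2FC -0.84, adjusted p = 0.0224 from edgeR), and the semaphorin gene Sema3g had -0.45. Vegfa itself was 274 to 291 CPM against 322 to 345 CPM, and its log2FC of 0.22 did not pass (adjusted p = 0.0876 from edgeR). With DESeq2's Wald test 1 gene of this list passed as higher in the cKO-labelled libraries.

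In the list of TIE, PDGF and sphingosine-1-phosphate genes, 2 of 11 were higher in the Ctrl-labelled libraries, namely the lipid kinase gene Sphk1 (-1.57) and Pdgfd (-0.57), and Pdgfa (0.55) was higher in the cKO-labelled ones (18.2% and 9.09%). The count of 2 became 1 without Ctrl 2, cKO 1 or cKO 3, and the call of Pdgfa was lost without Ctrl 1, Ctrl 2, cKO 1 or cKO 3. Of 10 Notch and apelin genes tested, 1 passed, Notch1 (-0.36), and with 1 library left out it passed only without Ctrl 3. Of 30 other endothelial genes, 27 had negative log2FCs and 5 passed (16.7%), with 4 to 9 passing when 1 library was left out (9 without cKO 2). By p the first were Ly6a (-1.13), a surface antigen that progenitors of fibroblasts and fat cells also carry, and the scavenger receptor gene Stab1 (-0.43), and the other 3 were Slc9a3r2 (-0.49), Thbd (-0.66) and Ly6c1 (-0.63). Of 17 further endothelial transcription factors tested, Gata2 (-0.43) and Foxc1 (-0.73) passed, a share of 11.8% that equals that of all genes. Neither passed without Ctrl 1, Ctrl 2 or cKO 3, and Gata2 did not without cKO 1. Of 10 arterial and venous genes, 0 passed edgeR's test, with 1 lower and 2 higher in the cKO-labelled libraries at an unadjusted p under 0.05.

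Of the 5 lymphatic genes tested 4 had negative log2FCs, and 4 passed. Of all genes, 11.8% passed as higher in the Ctrl-labelled libraries and 12.6% as higher in the cKO-labelled ones. Of the 4 lymphatic genes, 3 were higher in the Ctrl-labelled libraries (2 in each fit without 1 library). These were Lyve1 (log2FC -0.99), which macrophages can also express, Pdpn (-0.76), which fibroblasts share, and Reln (-0.53), whose call was lost without each of the 6 libraries in turn. The scavenger receptor gene Stab2 went the other way, with 5.03, 7.43 and 8.40 CPM in the Ctrl-labelled libraries and 17.8, 26.5 and 23.1 CPM in the cKO-labelled ones (log2FC 1.69, standard error 0.22, adjusted p = 0.00391 from edgeR). Prox1, the defining transcription factor of lymphatic endothelium, had 3.65, 1.86 and 4.57 CPM against 1.67, 2.21 and 0.682 CPM. Its log2FC of -1.15 (standard error 0.47) was the most negative of the 5 but did not pass (adjusted p = 0.117 from edgeR), and its groups overlapped. Its paralog Prox2, a member, was 2.13 to 2.68 CPM against 2.39 to 3.36 CPM (log2FC 0.16, 95% interval -0.30 to 0.62).

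The other mural genes were split. Of 14 pericyte genes tested, Rgs4 (log2FC -0.79) and Anpep (-0.51) were higher in the Ctrl-labelled libraries, and Art3 (0.90) and the potassium channel subunit gene Abcc9 (0.38) in the cKO-labelled ones; muscle fibres also express Art3 and Abcc9. Each direction holds 14.3% of this list, near the 11.8% and 12.6% of all genes. With edgeR the list's count higher in the Ctrl-labelled libraries became 0 without Ctrl 2, cKO 1 or cKO 3 and 1 without Ctrl 1 or Ctrl 3, and that in the other direction 1 without Ctrl 1, Ctrl 2, cKO 1 or cKO 3. Of 19 smooth muscle genes, Mustn1 (-1.20) and Cald1 (-0.38) were higher in the Ctrl-labelled libraries, and Adra1a (1.77) and Tpm1 (1.34) in the cKO-labelled ones. Tpm1 is a major tropomyosin of fast fibres. The 10.5% of this list in each direction is near the share of all genes, and the count higher in the Ctrl-labelled libraries became 1 without any library but cKO 2, and 4 without that one. Acta2, the smooth muscle actin gene, was 78.5, 78.7 and 97.4 CPM against 66.1, 72.7 and 53.5 CPM, and its log2FC of -0.40 did not pass (adjusted p = 0.0720 from edgeR), nor did Mylk (-0.26, adjusted p = 0.0754). Neither gene's groups overlapped. The factors that drive this program gave no call, with a log2FC of 0.079 for Srf and -0.89 for Myocd, which had at most 1.31 CPM in any library. Of 12 hypoxia genes, 4 were higher in the Ctrl-labelled libraries, among them Slc2a1 (-1.002) and Ndrg1 (-0.50), and 1 in the cKO-labelled ones, Adm (0.73), the gene of the ligand that RAMP2 receptors bind. Between 3 and 5 of the 12 were higher in the Ctrl-labelled libraries when 1 library was left out, and Adm then passed only without cKO 2.

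**Figure D5:**
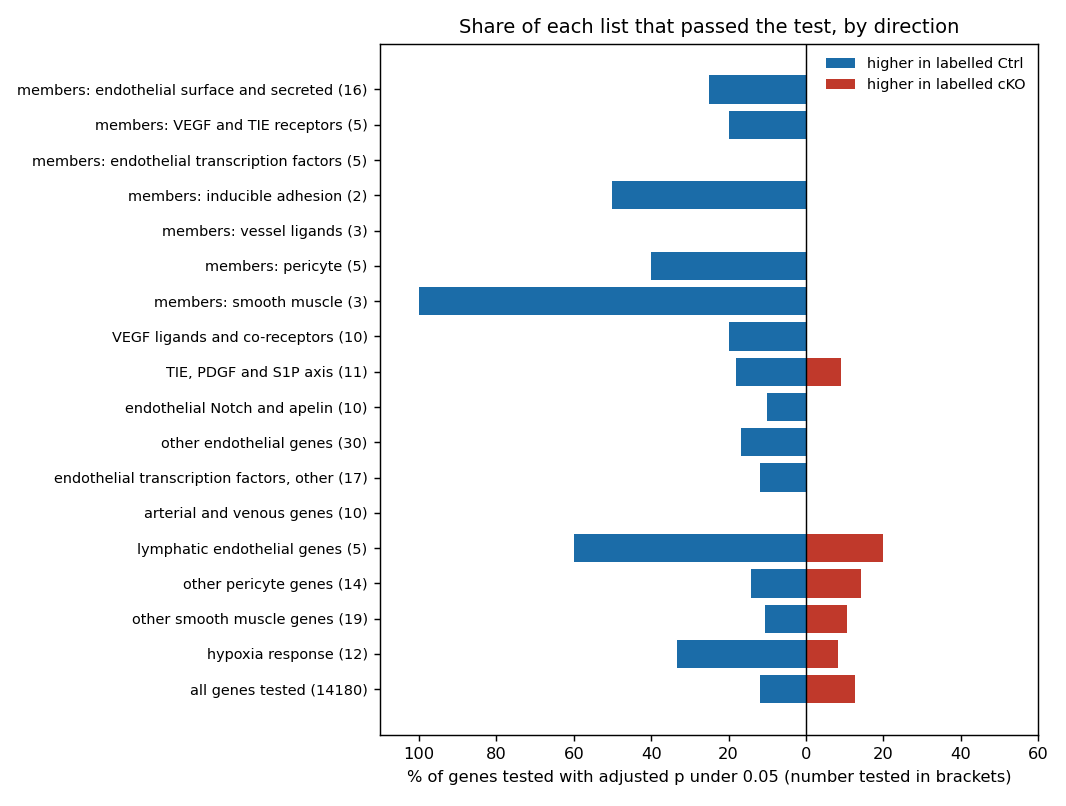
Share of the genes tested in each list (number in brackets) with an adjusted p under 0.05 from edgeR (horizontal axis, %), higher in the Ctrl-labelled libraries (blue, to the left) or in the cKO-labelled ones (red, to the right). Smooth muscle members reach 100% on the left (3 of 3) and endothelial transcription factors 0% on both sides, beside 11.8% and 12.6% for all genes tested.

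Muscle also holds other cells, whose markers moved with the groups to different degrees. Beside the counts that follow, 11.8% of all genes passed as higher in the Ctrl-labelled libraries and 12.6% as higher in the cKO-labelled ones. Slow-fibre genes had a median log2FC of -2.46, with 3 of 8 passing, and their summed level was 8480 to 14600 CPM in the Ctrl-labelled libraries and 446 to 3870 CPM in the cKO-labelled ones. Among them Myh7, the slow myosin gene, had 1723 to 3676 CPM against 75.3 to 974 CPM (adjusted p = 0.0742 from edgeR). Type IIb fast-fibre genes all passed in the other direction (8 of 8, 59800 to 98300 CPM against 153000 to 194000 CPM). These fibre counts changed when 1 library was left out. The 3 slow genes became 0 without Ctrl 1, Ctrl 2 or cKO 1, 1 without Ctrl 3, 7 without cKO 2 and 6 without cKO 3. The 8 fast genes became 5 without Ctrl 1, 2 without Ctrl 2 or cKO 1 and 1 without cKO 3. Calls over all genes higher in the cKO-labelled libraries fell in these fits too, from 1786 to 772 without cKO 3. Of 13 genes of fibro-adipogenic progenitors, the stromal cells between fibres, 6 passed and were higher in the Ctrl-labelled libraries (summed level 2850 to 2880 CPM against 2010 to 2590 CPM). Between 4 and 7 of the 13 passed with 1 library left out. All 8 Schwann cell genes had negative log2FCs (median -0.47), and 1, Pmp22, passed (-0.68). Of 7 satellite cell genes 1 passed, Cdh15, and was higher in the cKO-labelled libraries. In the lists of adipocytes (6 genes tested), tendon cells (6) and red blood cells (1) 0 passed edgeR's test and 0 had an unadjusted p under 0.05, with the globin genes Hba-a1, Hba-a2, Hbb-b1 and Hbb-b2 listed at 0. The summed level of the 26 endothelial members was 986 to 1090 CPM in the Ctrl-labelled libraries and 914 to 920 CPM in the cKO-labelled ones, and that of the 8 mural members 450 to 464 CPM and 368 to 386 CPM. Whether fibre type, stromal or immune content has a part in the vessel gene differences was not tested.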

How the data were processed

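Whole GP muscle RNA of 3 mice labelled Ctrl and 3 labelled cKO was sequenced as mRNA libraries. Per the labels and the study's methods, the authors checked reads with FastQC 0.11.8, trimmed with Trimmomatic 0.39, used HISAT2 2.1.0 for alignment to mm10 and counted them per gene with featureCounts 1.6.2. They deposited raw counts, 1 table per library, without normalization. The annotation and strand setting are not given in the sources used here. The libraries were grouped by their labels, against which Net39 goes.

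Counts of 14180 genes kept by filterByExpr were fitted in edgeR 4.0.16 (R 4.3.3) with TMM scaling, estimateDisp, glmQLFit and glmQLFTest without covariates, and p-values were adjusted by Benjamini-Hochberg over all of them. Standard errors come from the F statistic and intervals from its degrees of freedom. A gene passed when its adjusted p was below 0.05; the study further asked for a change of over 2-fold. Libraries agreed less well than counting error allows (chi-square per degree of freedom 31.3 to 107 between replicates). With 3 mice against 3 an exact permutation test cannot go below p = 0.1, so single genes were tested only in the fit across all genes. The steps were tested on simulated data of this comparison: of 113 genes changed 4-fold, edgeR recovered 105 (92.9%), and of 87 changed 2-fold 62 (71.3%), among 14019 genes tested. It also called 13 genes that were not changed. No gene was changed by less than 2-fold, the size of most member differences here, so recovery at that size is not known. Far fewer genes were changed than passed in the data.

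The members, the other lists and their roles were chosen with earlier results of these data known. Every member is named or counted; of the other vessel lists, up to 2 passing genes in each direction with the smallest p are named, and others named beside them (Reln, Slc9a3r2, Thbd, Ly6c1, Vegfa, Prox1, Acta2, Mylk, Srf, Myocd, Nfkb2, Pcsk7, Atg9b, Cd3e, Cd79a) were added after their values were seen. Alternatives were total counts or DESeq2's size factors for scaling, a stricter filter (10 counts per library or more) or none, DESeq2 1.42.0 for the test, a robust fit, the mouse number as a block and each library left out. Exon overlaps and lengths come from GENCODE M21 (GRCm38).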

Additional observations from a re-analysis of the deposited data

How the results depend on the processing

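Over the 13 alternatives 0 members passed in the direction of higher values in the libraries labelled cKO, and no member that passed changed sign. Total counts moved the count of members higher in the libraries labelled Ctrl from 11 to 20 (over 2-fold, from 1 to 2), that of the other vessel genes from 23 to 59 and, in the other direction, from 7 to 4. The same scaling moved the median log2 fold change of the endothelial members from -0.18 to -0.44 and of the mural members from -0.42 to -0.67, with the median of all genes at -0.27; relative to the median of all genes the endothelial value was -0.17 and the mural value -0.40. With 1 library left out, the members higher in the libraries labelled Ctrl were 3 to 12 (over 2-fold, 1 to 2), the other vessel genes 11 to 31 and, higher in those labelled cKO, 4 to 8. The endothelial median then ran from -0.22 to -0.18 and the mural median from -0.45 to -0.39. Fits without a library have fewer samples, and all genes higher in the libraries labelled Ctrl fell from 1668 to as few as 788 (without cKO 3), while they rose to 1808 without cKO 2. The mouse number as a replicate block gave 4 members (6.85% of all genes), and 13 and 4 other vessel genes. Under it Eng (adjusted p = 0.0576 from edgeR), Higd1b (0.0598), Cspg4 (0.0650), Tagln (0.0776), Nos3 (0.0892), Flt4 (0.106) and Mmrn2 (0.121) no longer passed. Whether the shared numbers pair the mice cannot be decided here. Deviations of same-numbered libraries correlated at 0.084, -0.22 and -0.0020 across genes, and not every library correlated best with its own number. With deviations taken from means of 3 libraries, a pairing need not show as such a correlation. Of 520 fits of single members, 460 kept their side of the threshold, 46 lost the call and 14 gained it. Genes with few counts, such as Cnn1 with 61 to 174 per library, rest on less depth.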
